A study of Mus musculus with 12 samples.

Results

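The effect of a high fat diet on hind limb muscle RNA was measured with both genotypes pooled, as the difference between 6 mice on high fat diet and 6 mice on normal chow with genotype as a term in the fit. All 12 samples of the series entered, and 11945 of the 22923 gene symbols listed were expressed highly enough to be tested. The mice were male, on the FVB background (FVB/N in the study's methods) and 22 weeks of age, and RNA came from the skeletal muscle of the proximal hind limb. Each diet was given to 3 WT mice, whose samples are titled Flox, and to 3 KO mice, which lack αB-crystallin and HspB2 in every tissue. The high fat diet, with 60% of its kcal from fat and 5.1 kcal/g, began at 6 weeks of age and ran for 16 weeks, and normal chow held 3.1 kcal/g. The KO mice were bred as littermates of the WT mice. Each pooled value below averages over mice with and without a pair of muscle small heat shock proteins. The genotype label of 6 samples contradicts the title, and the titles were used. The tissue holds tendon, fat, vessels, nerve and blood cells beside myofibres, and in such bulk samples fewer cells of a type and less RNA per cell cannot be told apart.

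Resting muscle burns fatty acids in its mitochondria, where acyl groups carried in by carnitine are shortened by β-oxidation and the electrons pass to the respiratory chain. Fatty acids and lipid mediators activate nuclear receptors of the PPAR family, which raise the genes of this route in many tissues. The opposite route, de novo lipogenesis, builds fatty acids from citrate under the control of the transcription factor SREBP-1 and is most active in liver and fat, where dietary fat is known to lower it.

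The deleted genes checked the titles first. Cryab lay between 412 and 837 FPKM (fragments per kilobase and per library size, a level scaled to transcript length) in the 6 WT samples and between 0.845 and 1.75 FPKM in the 6 KO samples. Hspb2 lay between 81.5 and 103 FPKM in WT and between 0.353 and 1.92 FPKM in KO samples. Libraries correlated with each other at a Spearman rho between 0.918 and 0.988 across genes. A set of 3 libraries stood apart, WT chow replicate 2 and KO chow replicates 1 and 3, whose summed T and B cell markers reached 146, 162 and 165 FPKM, against 5.79 to 12.1 FPKM in the other 9. Since all 3 are chow libraries, results that rest on them are given below with and without them. Ucp1 and Cidea, of the brown adipocyte list, were also highest in these 3 libraries. Ucp1 lay at 16.2, 7.50 and 6.67 FPKM there and at 0.746 FPKM or less in the other 9. Cidea lay at 29.8, 49.8 and 45.4 FPKM there and at 12.5 FPKM or less in the other 9. The other tested members of that list, Cpt1b (listed with Chkb), Ppargc1a and Cox8b, did not set these libraries apart. Myh4, a fast myosin heavy chain, is listed at 0 in all 12 samples, and Acta1, skeletal actin, at 0 in WT chow replicate 1 and KO high fat replicate 2, so neither was read as a muscle marker. Read depth is unknown, because the files hold no counts.

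The diet effect passed an adjusted p of 0.05 in 2 of 11945 genes (0.0167%), both higher on high fat diet, by limma with Benjamini-Hochberg adjustment. At an unadjusted p under 0.05 there were 1670 genes (14%), of which 946 (7.92%) had a positive and 724 (6.06%) a negative difference. The median log2 fold change of all tested genes was 0.01. Among the 5019 genes with a mean of at least 10 FPKM, 2451 were higher in both genotypes and 687 lower in both. Counts of gene groups below use the unadjusted threshold and are to be read against these shares, and verbs of change are kept for the genes that passed the adjusted one.

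BC048679, a protein-coding gene named after a cDNA clone, is annotated at 81494275 to 81498281 of chromosome 7, minus strand (GRCm38). Its level was 1.38, 2.23 and 1.67 FPKM in WT chow samples, 21.9, 19.8 and 18.2 FPKM in WT high fat samples, 3.84, 3.72 and 7.19 FPKM in KO chow samples, and 9.81, 19.3 and 17.1 FPKM in KO high fat samples. The diets did not overlap in either genotype, and the lowest high fat sample was the first KO mouse. BC048679 rose from 3.34 ± 2.15 FPKM on chow to 17.7 ± 4.18 FPKM on high fat diet (mean ± SD, n = 6 each). On the log2 scale this was 2.20 (SE 0.27, adjusted p = 0.0415 by limma). The rise was 2.93 in WT and 1.47 in KO mice on the log2 scale, and the difference between the genotypes had an unadjusted limma p of 0.0018 but did not pass adjustment over all genes (0.05).

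Prrx1, a homeobox transcription factor of limb mesenchyme and connective tissue fibroblasts, is annotated at 163245119 to 163313710 of chromosome 1, minus strand. It measured 18.5, 15.8 and 18.2 FPKM in WT chow samples and 22.1, 24.9 and 24.4 FPKM in WT high fat samples. In KO mice the chow samples were at 15.7, 17.4 and 16.8 FPKM and the high fat samples at 22.0, 22.8 and 22.1 FPKM. Prrx1 rose by a log2 fold change of 0.41 (SE 0.06, adjusted p = 0.0491 by limma), with 0.42 in WT and 0.40 in KO mice. The change was small and even between the genotypes.

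Both calls sat close to the threshold. With 1 sample left out, BC048679 kept a log2 fold change between 2.08 and 2.40, and passed only when the sample left out was WT chow 1, WT high fat 1, KO chow 3 or KO high fat 1. Without any one of the other 8 samples its adjusted limma p lay between 0.0631 and 0.175. Prrx1 kept a log2 fold change between 0.38 and 0.43 and passed only without WT chow 1 or WT high fat 1, with adjusted limma p-values from 0.0518 to 0.175 in the other cases. Without the 3 chow libraries rich in lymphoid markers the values were 2.55 (adjusted p = 0.0707) for BC048679 and 0.35 (adjusted p = 0.24) for Prrx1.

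**Figure D1:**
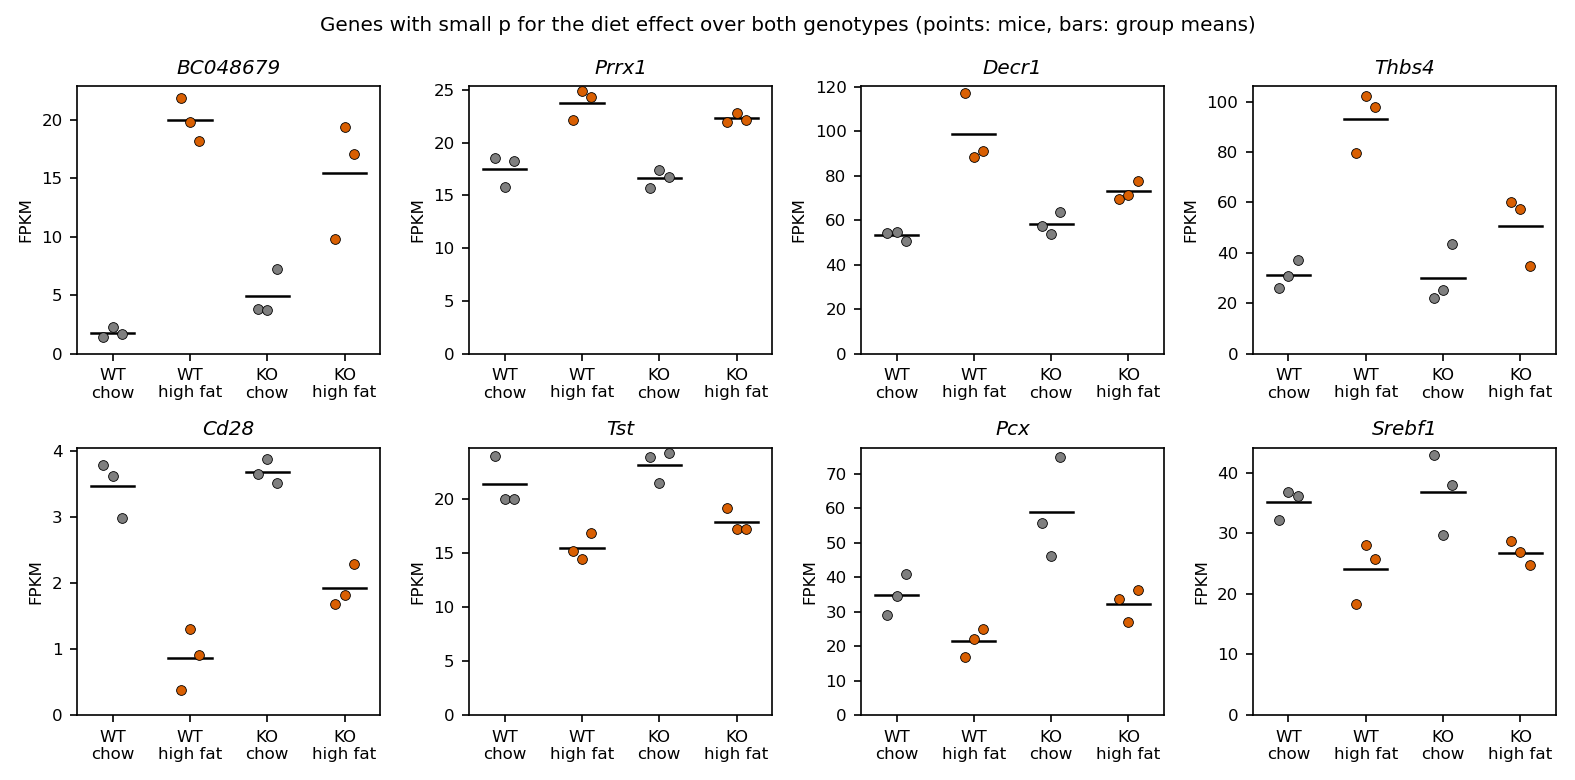
Level in FPKM (linear axis from 0) of 8 genes in the 12 mice, by genotype and diet, with points for mice and bars for group means. In BC048679, Prrx1, Decr1, Cd28, Tst and Srebf1 the high fat samples lie apart from all chow samples, while Pcx separates within each genotype and Thbs4 in WT but not in KO mice.

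None of the genes next in order passed adjustment (adjusted p = 0.0598 for Cd28 and 0.122 to 0.13 for 13 others, limma), and they are given as values. Among those higher on high fat diet, Decr1, the mitochondrial reductase needed to oxidise polyunsaturated fatty acids (chromosome 4, 15917240 to 15945507, minus strand), ran from 50.6 to 63.5 FPKM on chow with a median of 54.5 FPKM, and from 69.7 to 117 FPKM on high fat diet with a median of 83.1 FPKM. Its log2 fold change was 0.60 (SE 0.11), with 0.87 in WT and 0.32 in KO mice. Thbs4, thrombospondin-4 of tendon and muscle matrix, ran from 21.9 to 43.4 FPKM on chow and from 34.7 to 102 FPKM on high fat diet (1.15, SE 0.21), so that 1 KO high fat sample fell inside the chow range. Chodl, the membrane lectin chondrolectin, lay at 1.70 to 2.79 FPKM on chow. On high fat diet it lay at 2.88 to 5.92 FPKM (0.81, SE 0.15). The remaining genes of this group had smaller differences that were nearly equal in both genotypes, namely Fbln7, a fibulin of the extracellular matrix (0.44, with 0.46 in WT and 0.42 in KO), Maged2 (0.32) and Tmem8b (0.36).

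On the lower side stood 8 genes. Cd28, the costimulatory receptor of T cells (chromosome 1, 60716800 to 60773359, plus strand), measured 2.99 to 3.87 FPKM in the 6 chow samples and 0.386 to 2.28 FPKM in the 6 high fat samples. Its log2 fold change was -0.98 (SE 0.14) and -1.06 without the 3 lymphoid-rich libraries, and the chow samples poor in T cell markers were as high in Cd28 as the rich ones. Tst, the mitochondrial sulfurtransferase rhodanese, ran from 20.1 to 24.3 FPKM on chow and from 14.4 to 19.2 FPKM on high fat diet (-0.40, SE 0.07). Asl, the urea cycle enzyme argininosuccinate lyase, stood at 5.71 to 6.96 FPKM on chow and 4.38 to 5.19 FPKM on high fat diet (-0.36, SE 0.06). Tnfsf10, the death ligand TRAIL, stood at 3.08 to 4.17 FPKM against 2.02 to 3.06 FPKM (-0.38, SE 0.07). All 4 separated the diets completely.

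The other 4 had wider ranges. Cyp2e1, a cytochrome P450 that oxidises ethanol and ketone bodies, ran from 17.7 to 369 FPKM on chow and from 0.971 to 24.6 FPKM on high fat diet (-3.16, SE 0.55). Aacs, which activates acetoacetate for lipid synthesis, ran from 4.2 to 30.9 FPKM on chow and 1.26 to 7.07 FPKM on high fat diet (-1.63, SE 0.29). Pcx, pyruvate carboxylase, ran from 29.1 to 74.7 FPKM and 16.9 to 36.1 FPKM (-0.76, SE 0.14). Hsd11b1, which reactivates glucocorticoids, ran from 14.1 to 49.3 FPKM and 8.27 to 19.2 FPKM (-0.89, SE 0.16). In all 4 the ranges of the diets overlapped across genotypes, and the KO mean was above the WT mean on each diet. Within a genotype every chow sample was above every high fat sample, except that WT chow replicate 1 lay under 1 WT high fat sample in Aacs. Without the 3 lymphoid-rich libraries the log2 fold changes were -2.39, -1.12, -0.62 and -0.58, each still at an unadjusted p under 0.05.

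In 55 of the 11945 genes (0.46%) all 6 high fat samples lay above all 6 chow samples, and in 32 (0.268%) all lay below. Of the 55, 25 had an unadjusted p under 0.05 in each genotype alone, and their median log2 fold change was 0.30. Of the 32, 15 did, with a median of -0.30. Among all 11945 tested genes, 56 were higher and 58 lower in both genotypes at that threshold. Genes picked this way are separated within each genotype by the choice itself, so these counts and medians only describe them. Examples here were chosen after their values were seen. Ppp1r3b, which targets phosphatase 1 to glycogen, lay at 1.61 to 7.87 FPKM on chow and at 0.511 to 1.19 FPKM on high fat diet (log2 fold change -1.24, SE 0.24). Aldh1a1, a retinaldehyde dehydrogenase, lay at 32.0 to 53.7 FPKM on chow and 55.4 to 136 FPKM on high fat diet (0.76, SE 0.17). Gclc, the catalytic subunit of the first enzyme of glutathione synthesis, lay at 6.32 to 6.70 FPKM on chow and 5.16 to 5.91 FPKM on high fat diet (-0.21, SE 0.05). Pdp1, the phosphatase that activates pyruvate dehydrogenase, lay at 19.1 to 28 FPKM on chow and 28.1 to 38.9 FPKM on high fat diet (0.45, SE 0.10). Of the 55, 5 were ribosomal protein genes. Of all 91 ribosomal protein rows tested, 80 had a positive log2 fold change, 19 of them at an unadjusted p under 0.05 and none lower at that threshold, with a median of 0.09.

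Genes of mitochondrial fatty acid oxidation lay higher on high fat diet, with larger values in WT than in KO mice. Of the 27 genes listed, all tested, 26 were higher on average and 18 had an unadjusted p under 0.05, none in the lower direction. The median log2 fold change was 0.35. Summed over the 27 genes, the level ran from 2529 to 3204 FPKM on chow with a median of 2734 FPKM, and from 2850 to 5203 FPKM on high fat diet with a median of 3590 FPKM. The 3 WT high fat samples, at 5203, 3893 and 3853 FPKM, were above all others, and the 3 KO high fat samples, at 2850, 3118 and 3326 FPKM, overlapped the chow samples.

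The pooled value held unequal parts. Its median log2 fold change was 0.61 in WT and 0.10 in KO mice, and 22 of 27 genes had an unadjusted p under 0.05 in WT against 2 in KO. Over all tested genes the shares at that threshold were 8.12% in WT and 11.3% in KO mice. The difference between the genotypes had an unadjusted p under 0.05 in 18 of the 27, where the share over all tested genes was 6.25% (746 genes). No gene passed adjustment for that difference (limma, smallest adjusted p = 0.408). Ech1, an isomerase that prepares unsaturated fatty acids for β-oxidation, ran from 145 to 177 FPKM on chow and from 186 to 278 FPKM on high fat diet (0.48, SE 0.10), with 0.77 in WT and 0.19 in KO mice. Acadl, the long-chain acyl-CoA dehydrogenase, stood at 112 to 212 FPKM on chow and 170 to 397 FPKM on high fat diet (0.77, SE 0.19). It overlapped through KO chow replicate 3. Of the 27 genes, 21 were higher in both genotypes. So were 3843 of all 11945 tested genes and 2451 of the 5019 with a mean of at least 10 FPKM. Without the 3 lymphoid-rich libraries 20 of 27 were higher at an unadjusted p under 0.05, where the share over all genes was 4.92%, and the median was 0.42. Leaving out single samples gave 13 (without WT chow replicate 3) to 22 genes, and quantile normalization gave 12.

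Neighbouring steps of fat handling were less even. Fabp3, the fatty acid carrier of muscle cytosol, lay at 311 to 993 FPKM on chow and 731 to 1878 FPKM on high fat diet (1.31, SE 0.28), and only KO chow replicate 3 reached the high fat range. Of the 14 genes of fatty acid uptake and activation, 1 (Fabp3) was higher and 1 lower at an unadjusted p under 0.05, with a median of 0.11. Without WT high fat replicate 2, 3 were higher, and without the 3 lymphoid-rich libraries 5 were higher and 0 lower, with a median of 0.18. Of 17 genes of peroxisomal fatty acid oxidation 3 were higher and 1 lower, with a median of 0.00, and without the 3 libraries 2 were higher and 0 lower. Of 15 fasting-type PPAR targets 3 were higher and none lower, with a median of 0.26. That count went to 1 without WT chow replicate 2 or 3 or WT high fat replicate 2 or 3, and to 5 without KO chow replicate 3, without KO high fat replicate 2 or without the 3 lymphoid-rich libraries. Of 23 genes of triglyceride storage and lipolysis, 3 were higher (Hilpda, Fitm1 and Plin5) and 3 lower (Dgat1, Cidea and Lpin1), with a median of -0.14, and without the 3 libraries 2 were higher and 1 lower. Fitm1 (0.12), Dgat1 (-0.09) and Cidea (-0.33) no longer passed the threshold there. Plin5 was at 1.41 in WT and -0.13 in KO mice, so it did not keep 1 direction in both genotypes. Hilpda, which restrains lipolysis at lipid droplets, was higher in all 6 high fat samples (4.88 to 7.30 FPKM) than in all 6 chow samples (3.16 to 4.78 FPKM).

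**Figure D2:**
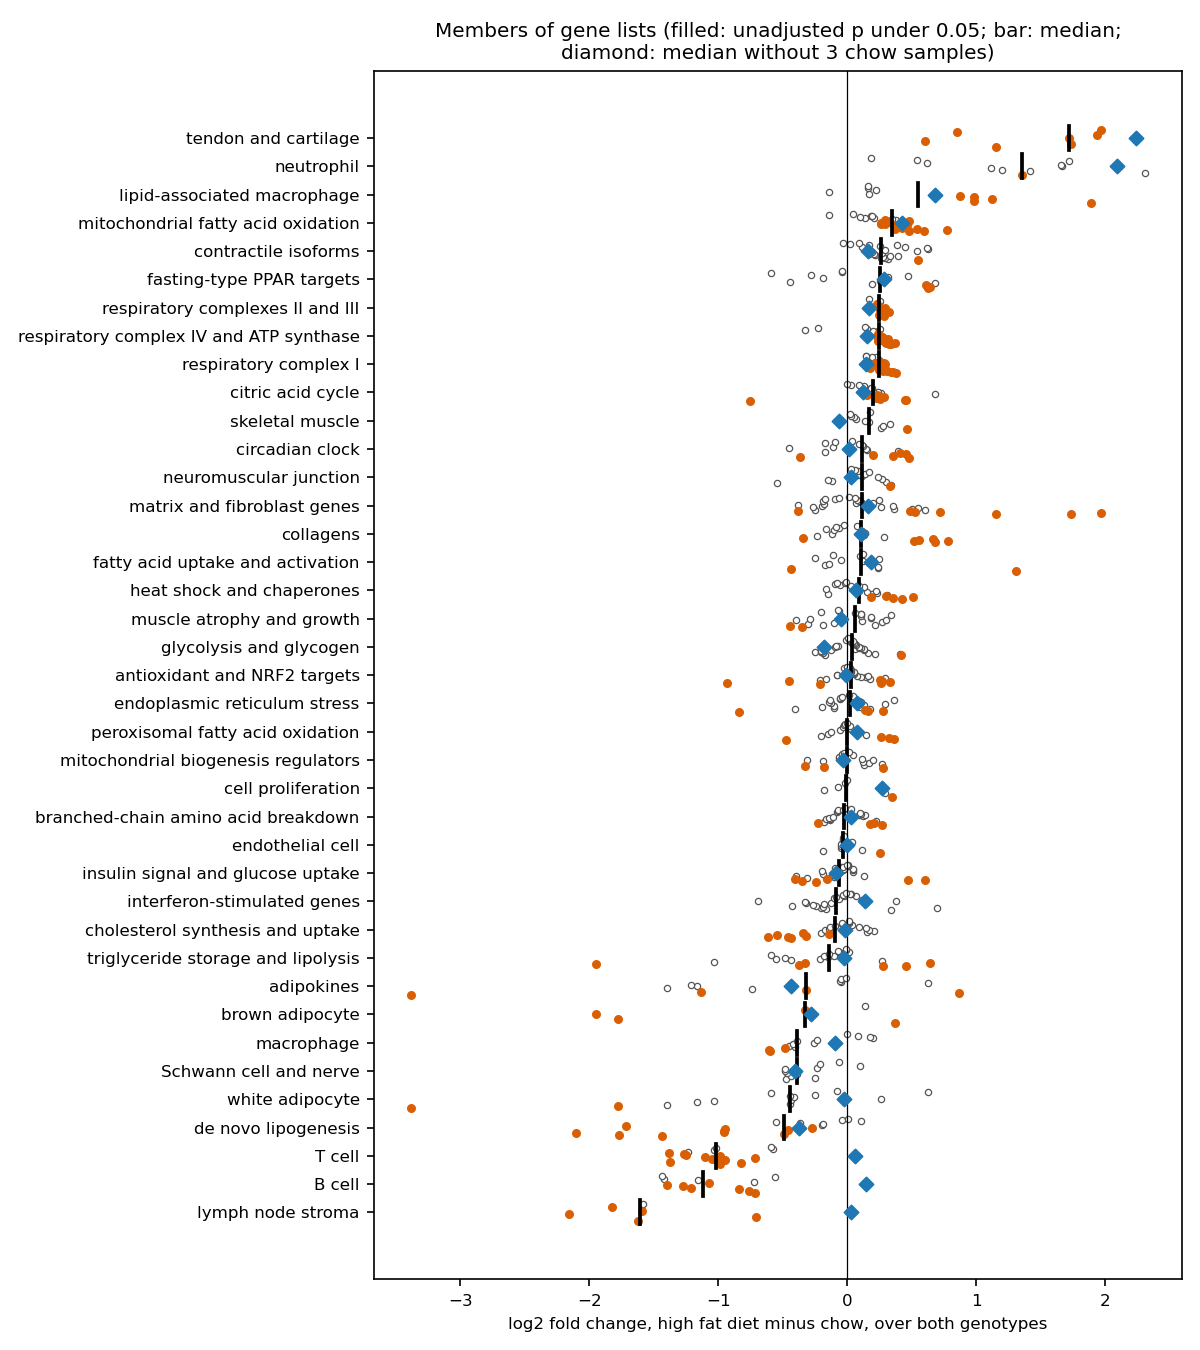
Log2 fold change (high fat diet minus chow, both genotypes) of each tested member of the gene lists with at least 5 tested members, filled where the unadjusted p is under 0.05, with a bar at the list's median and a diamond at the median without the 3 lymphoid-rich chow samples. Tendon and cartilage markers lie highest with a median of 1.72, fatty acid oxidation at 0.35 and de novo lipogenesis at -0.49, while the T cell, B cell and lymph node diamonds sit near 0.

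Subunits of the respiratory chain lay slightly higher on high fat diet, in step with each other. All 36 tested genes of complex I, which takes electrons from NADH, had a positive log2 fold change in both genotypes, with a median of 0.25, and 24 had an unadjusted p under 0.05. All 14 genes of complexes II and III did so too (median 0.25, 10 at that threshold), as did 27 of 29 genes of complex IV and ATP synthase (median 0.25, 18 at that threshold). Ndufa13, a complex I subunit, had the smallest p of the first group and lay at 181 to 264 FPKM on chow and 242 to 397 FPKM on high fat diet (0.38, SE 0.10). The ranges overlapped for this gene. Summed over each of the 3 lists, WT chow replicate 1 was the highest chow sample, at 14557, 8302 and 30257 FPKM. Of the high fat samples only WT high fat replicate 1, at 19721, 11781 and 41170 FPKM, was above it.

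These small shifts depended on the samples and the scaling more than those of fatty acid oxidation. Without the 3 lymphoid-rich libraries 1 of 36, 0 of 14 and 1 of 29 genes stayed at an unadjusted p under 0.05, with medians of 0.15, 0.17 and 0.15. With quantile normalization the counts were 4, 0 and 1 and the medians 0.09, 0.07 and 0.06. Complex I went to 7 genes without WT chow replicate 2 or without KO chow replicate 1, complexes II and III to 3 without WT chow replicate 2 or 3, and complex IV with ATP synthase to 7 without WT chow replicate 2. Without WT high fat replicate 1 the counts were 9, 4 and 9 and the medians 0.16, 0.17 and 0.17. Genes of contractile isoforms, which mark myofibres themselves, had a median of 0.26 with 25 of 26 positive, 1 of them at an unadjusted p under 0.05. Of the 26, 18 were positive without the 3 lymphoid-rich libraries, with a median of 0.16. The separate list of skeletal muscle markers had a median of 0.17, and of -0.06 without those libraries. The medians of the contractile and respiratory genes were thus of like size with and without the 3 libraries, and whether a larger share of myofibre RNA moved with both was not tested.

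In the citric acid cycle and its pyruvate entry, 10 of 28 genes were higher and 1 lower at an unadjusted p under 0.05 (median 0.20). Idh2, the mitochondrial NADP-dependent isocitrate dehydrogenase, lay at 128 to 165 FPKM on chow and 165 to 274 FPKM on high fat diet (0.45, SE 0.13). The gene on the lower side was Pcx, which feeds the cycle from pyruvate, while Pdp1 lay on the higher side. Without the 3 lymphoid-rich libraries 3 were higher and 1 lower, and leaving out single samples gave from 2 (without WT chow replicate 2 or 3, WT high fat replicate 1 or KO chow replicate 1) to 13 higher. Of 32 genes of glycolysis and glycogen, 1 was higher and none lower at this threshold, with a median of 0.04, and without the 3 libraries 0 were higher and 5 lower, with a median of -0.18.

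Genes of de novo lipogenesis lay lower on high fat diet in both genotypes. Of 17 tested genes, 10 had an unadjusted p under 0.05 in the lower direction and none in the higher, and 15 were lower in WT and in KO mice alike. The median log2 fold change was -0.49, with -0.57 in WT and -0.45 in KO mice. In none of the 17 did the difference between genotypes reach an unadjusted p under 0.05.

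Fasn, fatty acid synthase (chromosome 11, 120805846 to 120824547, minus strand), ran from 7.91 to 171 FPKM on chow with a median of 52.6 FPKM and from 1.40 to 29.6 FPKM on high fat diet with a median of 15.4 FPKM. Its log2 fold change was -2.10 (SE 0.47). Acaca, acetyl-CoA carboxylase, which makes the malonyl-CoA that Fasn uses, ran from 2.45 to 24.6 FPKM on chow and from 1.49 to 4.08 FPKM on high fat diet (-1.43, SE 0.28). For both genes the overlap came from WT chow replicate 1, the lowest chow sample. Thrsp, a nuclear and cytosolic protein that accompanies lipogenesis, ran from 18.8 to 230 FPKM and from 12.7 to 38.3 FPKM (-1.77, SE 0.37). Srebf1, which encodes SREBP-1, ran from 29.7 to 42.9 FPKM on chow and from 18.3 to 28.7 FPKM on high fat diet without overlap (-0.49, SE 0.11). It was the only member of the list whose diets did not overlap.

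Cholesterol genes were mixed. Of 23 tested, 7 were lower and none higher at an unadjusted p under 0.05, with a median of -0.09. Srebf2, Acat2 and Insig1 were among the 7. In the 9 samples left without the lymphoid-rich libraries 4 were lower and 0 higher, with a median of -0.02. Srebf2, which encodes SREBP-2, ran from 5.31 to 7.82 FPKM on chow and from 3.62 to 5.43 FPKM on high fat diet (-0.44, SE 0.09). Acat2, a cytosolic thiolase at the start of the pathway, ran from 4.27 to 13.6 FPKM on chow and from 4 to 6.33 FPKM on high fat diet (-0.61, SE 0.15), with WT chow replicates 1 and 3 inside the high fat range.

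Promoters of these genes are shown because CCAAT boxes, bound by NF-Y, are textbook partners of SREBP in lipogenic promoters, and NRF1 sites mark many respiratory genes. In RefSeq promoters (GRCm38.p6) of 250 bases before to 50 bases after a start site, CCAAT on either strand was present in 11 of the 14 de novo lipogenesis genes with a promoter (78.6%), 13 of 14 cholesterol genes (92.9%), 9 of 21 fatty acid oxidation genes (42.9%) and 28 of 65 respiratory genes (43.1%), against 41.1% of all 27025 genes. The capitals mark the box, which reads ATTGG where it lies on the other strand, in windows written 5′ to 3′ on the gene's strand.
Fasn, chr11:120824593-120824622, minus strand: acggcctcggtgtCCAATtggtttcgatgt
Fasn, chr11:120824621-120824650, minus strand: cccgcgcgccgccATTGGgccaccgagaac
Thrsp, chr7:97417586-97417615, minus strand: gggctgtgttgctCCAATggttgggctttg
Srebf1, chr11:60222731-60222760, minus strand: actgcgactgtctCCAATgcaagacaacct
Srebf2, chr15:82147121-82147150, plus strand: gcttcgcgcgccgATTGGctaatgcaagcc
Pcx, chr19:4510279-4510308, plus strand: tcccgcctcttcaCCAATcacaaggtcttc

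The NRF1 letters GCGCANGCGC, on either strand, were present in 18 of 65 respiratory genes (27.7%), 3 of 21 fatty acid oxidation genes (14.3%) and 1 of 14 de novo lipogenesis genes (7.14%), against 5.19% of all genes. The sterol element letters TCACNCCAC were present in 1 of 14 genes in each of the lipogenesis and cholesterol lists (7.14%), against 1.44% of all genes. A match describes the letters in the window and is not evidence of binding in these samples. Capitals mark the NRF1 letters in a complex I subunit and an ATP synthase subunit, both at 0.34 on the log2 scale.
Ndufa5, chr6:24527697-24527726, minus strand: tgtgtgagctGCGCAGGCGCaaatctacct
Atp5k, chr5:108434430-108434459, minus strand: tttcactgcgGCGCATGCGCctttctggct

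Fat cell genes lay beside the lipogenic ones. Cfd, the adipokine adipsin, ran from 69.1 to 1329 FPKM on chow and from 2.77 to 115 FPKM on high fat diet (-3.38, SE 0.71), and WT chow replicate 1 was the only chow sample inside the high fat range. Of 14 white adipocyte markers, 12 had a negative log2 fold change and 2, Cfd and Pck1, an unadjusted p under 0.05, with a median of -0.44. Summed over the 14, the level ran from 2491 to 7600 FPKM on chow (median 4348 FPKM) and from 2629 to 5011 FPKM on high fat diet (median 4479 FPKM), so the sums overlapped almost fully. The 2 highest sums belonged to KO chow replicates 1 and 3, which are lymphoid-rich libraries. Adipoq, adiponectin, had a log2 fold change of -1.17 and Lep, leptin, of 0.63, neither at an unadjusted p under 0.05.

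Without the 3 lymphoid-rich libraries the white adipocyte median was -0.02, with 7 of 14 positive, and the de novo lipogenesis median was -0.37, with 6 of 17 genes lower at an unadjusted p under 0.05 (3.58% of all genes). One lipogenic gene was higher there. Fasn then had a log2 fold change of -1.53, Thrsp of -1.08, Acaca of -0.92, Srebf1 of -0.37 and Cfd of -2.74, each at an unadjusted p under 0.05. The part that fat tissue in the sample has in these differences was not tested.

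Tendon and connective tissue genes lay higher. All 7 tested tendon and cartilage markers had a positive log2 fold change in both genotypes and an unadjusted p under 0.05, with a median of 1.72, 2.43 in WT and 0.84 in KO mice. Their sum over 12 listed genes was 42.5, 82.6 and 109 FPKM in WT chow, 272, 478 and 378 FPKM in WT high fat, 46.3, 41.1 and 108 FPKM in KO chow, and 197, 90.4 and 79.4 FPKM in KO high fat samples. The WT diets separated, and the KO diets did not. Tnmd, the tendon membrane protein tenomodulin, ran from 0.888 to 5.56 FPKM on chow and from 5.02 to 23.5 FPKM on high fat diet (1.74, SE 0.37). Scx, the transcription factor scleraxis that specifies tendon, ran from 3.02 to 5.84 FPKM and from 4.38 to 8.89 FPKM (0.61, SE 0.15). Leaving out any 1 sample, or the 3 lymphoid-rich libraries, kept all 7 at an unadjusted p under 0.05.

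Collagens as a family were less uniform. Of 20 tested collagen genes 5 were higher and 1 lower at an unadjusted p under 0.05, with a median of 0.11, and without WT high fat replicate 1, 8 were higher. Of the 5, Col11a1 and Col12a1 passed the filter on low values only through high fat samples. With 1 FPKM required in at least 6 samples, 3 of 18 were higher and 1 lower, with a median of 0.09. Col1a1, the main chain of fibrillar collagen type I, ran from 33.9 to 113 FPKM on chow and from 108 to 162 FPKM on high fat diet (0.78, SE 0.22). Col4a5 of basement membranes was the one lower gene, at -0.34. Of 32 matrix and fibroblast genes, some of them tendon markers as well, 6 were higher and 1 lower, with a median of 0.11. The higher count ran from 3 without WT high fat replicate 3 to 11 without WT high fat replicate 1, and was 10 without the 3 lymphoid-rich libraries. Prrx1 is known from the same connective tissue cells, and whether the amount of tendon or fascia in the samples moved with it was not tested.

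**Figure D3:**
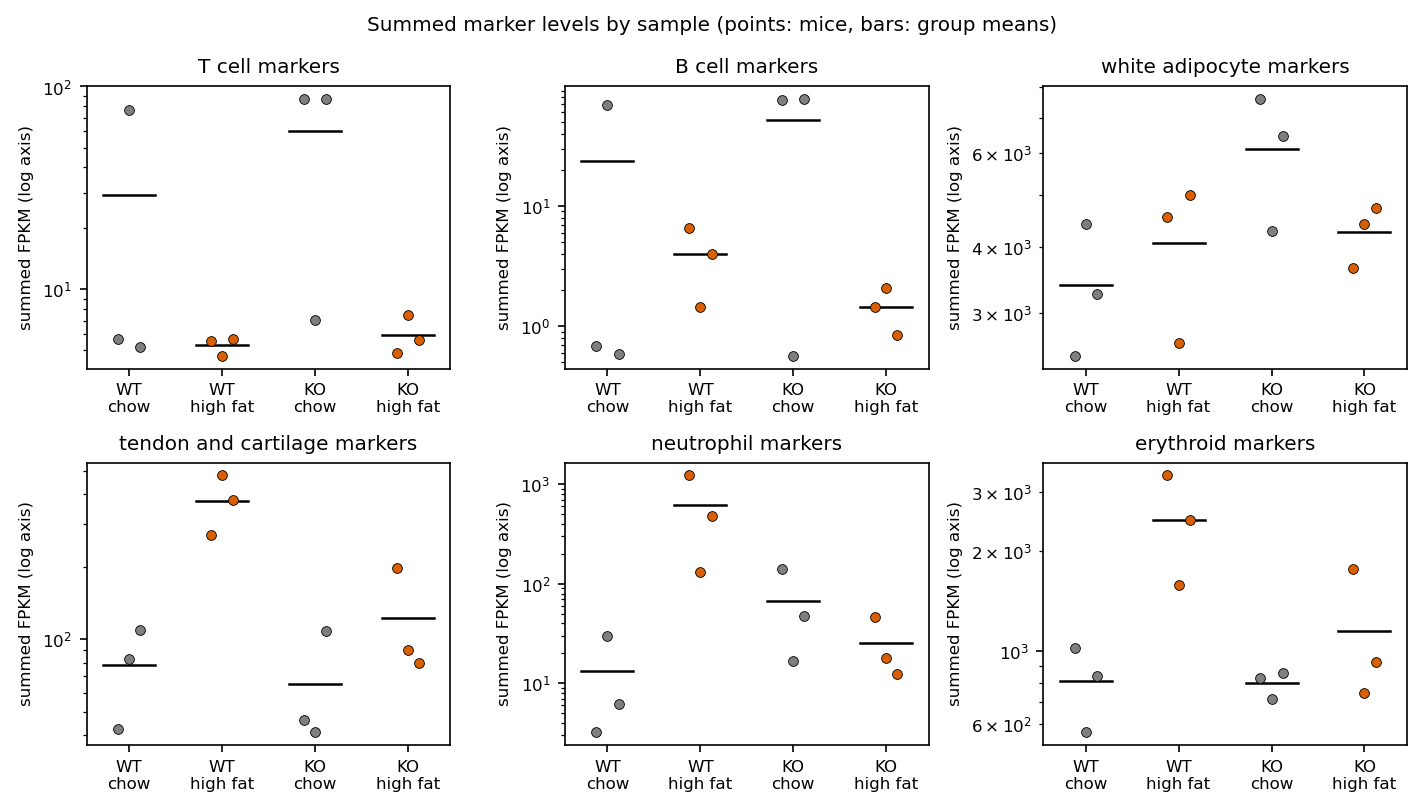
Summed FPKM (log axis) of the markers of 6 cell types in each of the 12 mice, with points for mice and bars for group means. T and B cell sums are high in the same 3 chow samples, and white adipocyte sums overlap between the diets. Tendon and cartilage sums are highest in the 3 WT high fat samples, and neutrophil and erythroid sums in WT high fat replicates 1 and 3.

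Lymphocyte genes lay lower on high fat diet through the 3 libraries named above. The T cell sum was 76.6, 86.4 and 86.9 FPKM in these 3 and 4.71 to 7.46 FPKM in the other 9, of which 6 were high fat samples. The B cell sum was 69.6, 76.1 and 77.8 FPKM in the 3 and 0.569 to 6.55 FPKM in the other 9. With a filter of 1 FPKM in at least 6 samples, 1 of the 17 T cell markers and 0 of the 12 B cell markers were tested, so the sign of nearly all of them in the pooled comparison was set by the filter and their counts and medians are not read as results. Without the 3 libraries the medians were 0.06 for T cells, 0.15 for B cells and 0.03 for lymph node stroma. Cd28 was the T cell marker left under the stricter filter, with all chow samples above all high fat samples.

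Median log2 fold changes of the general and the lipid-associated macrophage markers had opposite signs. Of 13 general macrophage markers none was higher and 3 were lower at an unadjusted p under 0.05 (median -0.39), and without the 3 libraries 1 was higher and 1 lower (median -0.10). Markers of lipid-associated macrophages, which take up lipid in obese fat, had 5 of 10 higher and none lower, with a median of 0.55 and 0.68 without the 3 libraries. Of the 5, Mmp12 and Atp6v0d2 passed the filter on low values only through high fat samples, and with 1 FPKM required in at least 6 samples 3 of 8 were higher, with a median of 0.20. Mmp12, macrophage elastase, measured 0.189, 0.606 and 0.175 FPKM in WT chow and 0.195, 1.34 and 4.18 FPKM in WT high fat samples. In KO mice the chow samples were at 0.114, 0.0153 and 0.290 FPKM and the high fat samples at 6.44, 9.91 and 6.28 FPKM. The KO diets were far apart and the WT diets overlapped.

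The median of the lipid-associated macrophage markers was 0.18 in WT and 1.09 in KO mice, and 5 of the 10 had an unadjusted p under 0.05 for the difference between genotypes. Lgals3, galectin-3, ran from 7.21 to 17.5 FPKM on chow and from 8.47 to 65.0 FPKM on high fat diet (1.12, SE 0.32). Il1rn, the interleukin-1 receptor antagonist, ran from 0 to 0.319 FPKM on chow and from 0.355 to 1.69 FPKM on high fat diet (0.68, SE 0.13), with 0.33 in WT and 1.02 in KO mice. No chow sample reached 1 FPKM, so Il1rn entered the test only through its high fat samples. The larger share of these pooled values came from KO mice, the reverse of fatty acid oxidation.

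Most genes of the insulin signal lay slightly lower on high fat diet, few of them at an unadjusted p under 0.05. Of 31 tested, 22 had a negative and 9 a positive log2 fold change, with a median of -0.07. At that threshold 2 were higher and 4 lower. Without the 3 lymphoid-rich libraries 24 were negative and 7 positive, with 1 higher and 0 lower at the threshold. Slc2a4, the insulin-regulated glucose transporter GLUT4, had a log2 fold change of -0.05 and Irs1, an insulin receptor substrate, of -0.07. Tbc1d1, a Rab GTPase activator that holds back glucose transporter vesicles, had 0.60, with 1.01 in WT and 0.20 in KO mice. Of 24 heat shock and chaperone genes, 5 were higher and none lower (median 0.09), among them the small heat shock proteins Hspb6 (0.43) and Hspb7 (0.51), with like values in both genotypes. With the 3 lymphoid-rich libraries left out 1 of the 24, Hspd1, was higher at that threshold, while Hspb6 (0.43) and Hspb7 (0.53) no longer passed it, and leaving out single samples gave 2 to 8. Cryab itself was at 0.56 in WT mice, and its pooled value of 0.30 averages this with the near-zero level of KO samples.

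The diet effect had the same sign in WT and KO mice in 7396 of 11945 genes (61.9%), of which 3843 were higher and 3553 lower. Of the 5019 genes with a mean of at least 10 FPKM, 3138 (62.5%) had the same sign, 2451 higher and 687 lower. Groups of abundant genes are to be read against that split. The 2 within-genotype comparisons share no sample, but each holds lymphoid-rich chow libraries (WT chow replicate 2, and KO chow replicates 1 and 3). Genes that passed the filter on low values only through these libraries are set to lie lower on high fat diet in both genotypes. The counts below were not repeated without them. In WT mice alone 970 genes (8.12%) had an unadjusted p under 0.05 and 12 passed adjustment, and in KO mice 1349 (11.3%) and 0 (limma). Of the 970, 633 (65.3%) had the same sign in KO mice, and of the 1349, 979 (72.6%) had the same sign in WT mice. Genes under 0.05 in both numbered 138, and 114 of these had the same sign, 56 higher and 58 lower. The 114 are 11.8% of the WT genes and 8.45% of the KO genes. Over all tested genes, 6.56% were higher and 4.73% lower at that threshold in KO mice. Across genes, which are not independent replicates, the WT and KO log2 fold changes had a Pearson r of 0.28 and a Spearman rho of 0.34.

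Of the 1670 genes with a pooled unadjusted p under 0.05, 1649 had the same sign in both genotypes, as a pooled effect favours, and 150 had an unadjusted p under 0.05 for the difference between genotypes. The 12 WT genes past adjustment included BC048679, Cd28, Chodl, Decr1 and Ech1, all with the same sign and a smaller value in KO mice (1.47, -0.68, 0.43, 0.32 and 0.19). Gadl1 (-1.25 in WT and 0.21 in KO) and 2610019F03Rik (-1.03 and 0.10) had opposite signs. By gene group, complex I, the tendon markers and de novo lipogenesis kept 1 sign in both genotypes for 36 of 36, 7 of 7 and 15 of 17 genes, whereas none of 11 neutrophil markers did.

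**Figure D4:**
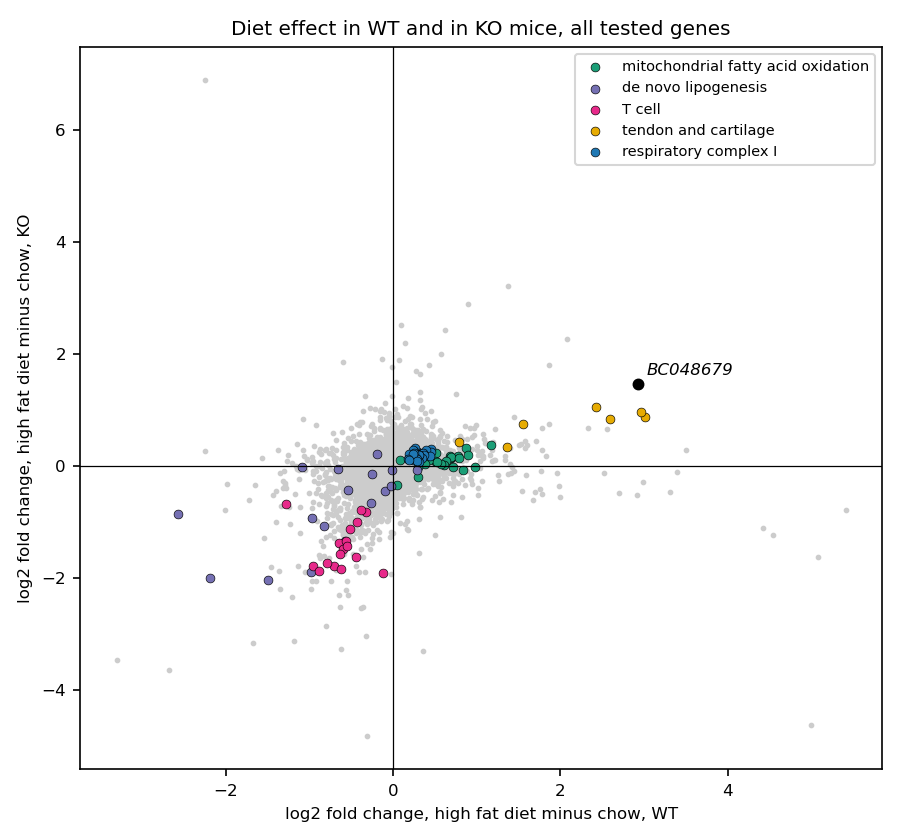
Log2 fold change (high fat diet minus chow) in KO mice against that in WT mice for all 11945 tested genes, in grey, with 5 gene lists coloured and BC048679 marked. Fatty acid oxidation genes spread along the WT axis, T cell genes reach lower values in KO mice, and tendon and lipogenic genes lie mostly on the same side of 0 in both genotypes.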

How the data were processed

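Per the submitters' processing notes, TopHat2 2.0.8b, Cuffdiff 2.1.1 and the mm10 build were used. The authors deposited FPKM values by gene symbol for each sample without pooling replicates. Each sample had 23179 rows for 22923 symbols, and for a repeated symbol the row with the highest mean over the 12 samples was kept. Nothing else on filters or annotation is given in the sources used here. Samples were grouped by title, 3 mice in each of 4 groups. The test took genes that reached an FPKM of 1 in 3 or more samples, on log2(FPKM + 1), a scale that understates changes of low genes, with limma 3.58.1 in R 4.3.3 (variance trend, diet and genotype as terms, 9 residual degrees of freedom) and Benjamini-Hochberg adjustment at a threshold of 0.05. WT, KO and interaction values came from a fit of 4 group means.

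Named genes were Cryab and Hspb2, the called genes filled to 8 per direction by unadjusted p among genes of 1 sign in both genotypes, up to 4 members per list by p, and up to 4 of the 50 smallest p by interaction p. Genes outside this rule were chosen after their values were seen. The members and the 42 gene lists were chosen with earlier results of these data known. Of 824 list symbols 814 were found. The fit was tested on simulated data.

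Alternatives were the pseudocount, the filter, normalization, genotype label, replicate blocks, variance moderation, thresholds and each sample left out. Leaving out the 3 lymphoid-rich chow libraries, and sample quality weights, were chosen after seeing the data. Positions are from GENCODE M21 (GRCm38), and promoter sequences from RefSeq (GRCm38.p6). Read depth is unknown, so no counting error could be given, and p-values measure the spread between mice.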

Additional observations from a re-analysis of the deposited data

Results flagged for a closer look

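BC048679 in KO high fat replicate 1 stood apart from the other 5 high fat samples, at 9.81 FPKM against 17.1 to 21.9 FPKM. On the log2(FPKM + 1) scale its gap to the nearest sample took a larger share of the range than Dixon's 95% limit for 6 samples allows. Chance flags about 1 in 20 groups. Without this sample the log2 fold change of BC048679 was 2.40 (adjusted p = 0.0059 by limma).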

How the results depend on the processing

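The count of 2 genes past the adjusted threshold was unstable. It was 0 with a pseudocount of 0.1, without the filter on low values, with genotype taken from the genotype label and without the 3 lymphoid-rich chow libraries (1016 genes at an unadjusted p under 0.05 there). It was 1 without the genotype term, with quantile normalization and with a log2 fold change of at least 0.5, 7 with 4 group means, 14 with sample quality weights (5 higher, 9 lower) and 1670 without adjustment. Leaving out 1 sample gave from 0 to 7 genes, with 7 without WT chow replicate 1, 6 without WT high fat replicate 1, 5 without KO chow replicate 3, 1 without KO high fat replicate 1 and 0 in the other 8 cases. The cause was not tested. The interaction went from 0 genes to 1 without the filter, 4930503E14Rik, listed at 0 in 9 samples and at 0.123 to 0.135 FPKM in KO chow.

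Replicate numbers did not pair the samples: correlations of same-numbered deviations ran from -0.295 to 0.387 over 6 pairs, and 3 of 12 samples were closest to their own number. With the number as a replicate block the count was 0, and with a block within genotype 5 (Aacs, Cfd, Cyp2e1, Fasn and Pcx, all lower).

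Of 3391 values of 131 named genes over 26 settings, 3325 kept direction and side of the threshold, 32 lost and 29 gained the call. Only BC048679 and Prrx1 had a call to lose, so all 32 losses were theirs. For the other named genes staying above an adjusted p of 0.05 was nearly set in advance, so the 3325 does not measure stability. The remaining 5 turned positive, all without the 3 libraries: Cxcr5 (0.00083), Cr2 (0.0032), Fcer2a (0.071), Glycam1 (0.039) and Marco (0.026). Low genes are limited by unknown depth.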

Other observations

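Blood and marrow cell genes lay higher in WT mice on high fat diet. All 11 tested neutrophil markers had a positive pooled log2 fold change with a median of 1.35, 1 of them at an unadjusted p under 0.05. The median was 0.89 without WT high fat replicate 1, and 2.1 with 10 of 11 at that threshold without the 3 lymphoid-rich libraries. The medians were 2.99 in WT and -0.48 in KO mice, and all 11 had an unadjusted p under 0.05 for the difference between genotypes (limma, none past adjustment). With 1 FPKM required in at least 6 samples, 7 of the 11 were tested, all positive, with a pooled median of 1.66. The markers not tested there reached 1 FPKM in few samples, so the filter may have set their sign and their difference between genotypes. The summed neutrophil level was 1234, 133 and 477 FPKM in the WT high fat samples and 3.23 to 140 FPKM in the other 9. Of the 3 tested erythroid rows all were higher (median 0.99), with sums of 3368, 1574 and 2475 FPKM in WT high fat samples and 568 to 1762 FPKM in the others.

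Clock genes were split. Of 18 tested, 5 were higher and 1 lower at an unadjusted p under 0.05, with a median of 0.12. With those 3 libraries left out 1 was higher and 2 lower, with a median of 0.01. Dbp, a clock output factor, had a log2 fold change of 0.48 (0.20 in WT and 0.76 in KO mice) and of 0.36 without those libraries, where it no longer passed the threshold, and Arntl, the activator that drives the clock, of -0.36 (-0.39 and -0.34). The sources used here give no hour of tissue collection. Interferon-stimulated genes had 0 of 25 members at that threshold in either direction by limma, with a median of -0.09, and of 0.14 without the 3 libraries, and none of 21 muscle atrophy and growth genes was higher and 2 were lower. Keratin and hair markers summed to 70.8 FPKM in WT high fat replicate 2 and to at most 2.9 FPKM in the other 11 samples.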
